A study of Homo sapiens with 42 samples.

Results

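Replication-type histone genes are the multicopy genes that supply most of the core histones H2A, H2B, H3 and H4 and of the linker histone H1 to newly replicated DNA. They were taken here as all genes whose symbol in the platform annotation begins with H1- and a digit, or with H2AC, H2BC, H3C or H4C and a digit, each read by the brightest of the probe sets that name no other gene. The rule gave 50 of the 19775 genes measured, of which 11 belonged to H1, 9 to H2A, 14 to H2B, 7 to H3 and 9 to H4. It also admits genes of another kind. H1-10 is a replacement-type linker histone made also outside S phase, H1-6, H1-7, H1-8 and H2BC1 are known from germ cells, H1-9P, H2AC5P and H4C10P are annotated as pseudogenes, and H1-10-AS1 is a long noncoding RNA. A further 19 histone symbols, such as H2AC18 and H2AC19, occur only on 20 probe sets that name several of these genes at once. They are described apart, near the end.

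The RNA came from A375, an established human melanoma cell line with a mutated BRAF gene and functional p53, and was hybridised to 42 whole-genome expression arrays in 14 groups of 3. Cells carried siRNA for 48 h against p53, CDT1 or BRCA1, or the control siRNA GL2, which targets firefly luciferase and no human gene. They then spent 26 h in a drug or in its solvent, 0.065% DMSO. The drugs were Nutlin at 5 uM, daunorubicin at 100 nM and MLN4924 at 650 nM. GL2 and p53 siRNA cells received each drug, and for each of these siRNAs the labels tell 2 sets of DMSO arrays apart, called first and second here. CDT1 and BRCA1 siRNA cells received DMSO or MLN4924. All groups therefore carry an siRNA, and an siRNA lowers its target without removing it. Nutlin blocks the binding of MDM2 to p53, daunorubicin traps topoisomerase II on DNA and breaks it, and MLN4924 inhibits the enzyme that activates NEDD8 and so the cullin-RING ubiquitin ligases. Nothing in the labels says whether the 3 replicates of a group came from separate cultures. The p-values then reflect the spread among these samples alone, which may be technical.

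Most messenger RNAs of replication-dependent histone genes end in a stem-loop in place of a poly(A) tail. NPAT, activated by cyclin E and CDK2, switches the gene clusters on as S phase begins, and the stem-loop binding protein SLBP carries the message through processing, translation and decay. Several of these genes are also known to give polyadenylated transcripts, mainly in cells that have left the cycle. The labelling kit named in the labels copies RNA from its poly(A) tail, so a change in the amount of a histone message and a change in the share of it that is polyadenylated cannot be told apart here.

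The promoters of the members on which the results turn are shown first, since shared letters upstream are what histone families are known for. Of the 50 genes, 43 had an entry in the RefSeq promoter table (GRCh38.p14). The 250 bases upstream of each start were searched on both strands for the octamer ATTTGCAT, known from H2B promoters, for CCAAT, for TATAAA and for AAACACA, an element known from H1 promoters. Printed below are the last 150 upstream bases, 5′ to 3′ toward the start on the gene's own strand, with these matches in capitals in either orientation. H1-2 lies at chr6:26056471-26056620 (minus strand), H2AC6 at chr6:26124022-26124171 (plus), H2BC4 at chr6:26123927-26124076 (minus), H2BC5 at chr6:26157971-26158120 (plus), H2BC12 at chr6:27146859-27147008 (minus) and H2BC21 at chr1:149886683-149886832 (minus).
H1-2: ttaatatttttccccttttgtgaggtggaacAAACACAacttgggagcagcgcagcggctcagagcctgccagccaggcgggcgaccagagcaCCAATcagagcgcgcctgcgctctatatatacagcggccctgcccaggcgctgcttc
H2AC6: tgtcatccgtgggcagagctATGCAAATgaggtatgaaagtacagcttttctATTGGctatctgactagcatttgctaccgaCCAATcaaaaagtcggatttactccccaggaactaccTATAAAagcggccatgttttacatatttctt
H2BC4: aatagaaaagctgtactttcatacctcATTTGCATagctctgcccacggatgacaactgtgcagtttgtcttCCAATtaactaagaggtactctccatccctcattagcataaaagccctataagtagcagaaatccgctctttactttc
H2BC5: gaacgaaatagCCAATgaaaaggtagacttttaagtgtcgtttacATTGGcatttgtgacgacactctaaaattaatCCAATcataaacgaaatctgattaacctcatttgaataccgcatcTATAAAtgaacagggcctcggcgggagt
H2BC12: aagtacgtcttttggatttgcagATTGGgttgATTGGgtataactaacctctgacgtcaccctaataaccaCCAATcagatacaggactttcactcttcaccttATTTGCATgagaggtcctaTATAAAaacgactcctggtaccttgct
H2BC21: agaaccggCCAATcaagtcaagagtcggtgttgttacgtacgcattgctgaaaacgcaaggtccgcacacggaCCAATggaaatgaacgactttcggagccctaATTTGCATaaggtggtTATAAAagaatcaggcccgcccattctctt

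The octamer occurred in 10 of 13 H2B and 6 of 8 H2A promoters and in 0 of the 9 H1, 6 H3 and 7 H4 promoters, against 1.66% of all 27305 promoters in the table. AAACACA occurred in 7 of 9 H1 promoters and in none of the other 34, against 4.95% of all. CCAAT was held by 37 of the 43 and 33.0% of all, and TATAAA by 28 of the 43 and 11.1% of all. H2BC4 and H2AC6 start 246 bases apart and point away from each other, so the octamer printed in both is a single stretch of DNA read from its 2 sides. The same arrangement places H2AC14 beside H2BC14 with 245 bases between their starts, H2AC15 beside H2BC15 with 194 and H2AC17 beside H2BC17 with 240. The bases searched for such a pair overlap, so a match can count for both of its genes. The counts of promoters with a match are therefore not counts of separate sites. Of the E2F-type letters searched, TTTCGCGC occurred in 9 of 43 promoters and 0.469% of all, TTTCCCGC in 1 of 43 and 1.42% of all, and TTTGGCGC in 0 of 43 and 0.553% of all. A match is a description of the letters and does not show that a factor binds there.

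The arrays and labels were checked on genes outside the family. In the GL2 and p53 siRNA groups that received DMSO, CDT1 ran from 8.52 to 9.17 and BRCA1 from 8.52 to 9.17 in log2 signal. CDT1 lay between 6.51 and 6.77 under CDT1 siRNA with DMSO, and BRCA1 between 5.82 and 5.98 under BRCA1 siRNA with DMSO. CDKN1A, a direct p53 target, ran from 6.48 to 7.57 under p53 siRNA with DMSO and from 9.01 to 9.25 under GL2 siRNA with DMSO. A pair of libraries went against their labels, since BRCA1 was 4.70 in the third library labelled GL2 with MLN4924 (7.95 and 8.24 in the other two) and 8.18 in the third library labelled BRCA1 with MLN4924 (4.93 and 5.28). The first library labelled p53 with daunorubicin had a 5′ to 3′ signal ratio of 0.0118 for ACTB and 0.0509 for GAPDH, against 0.649 to 0.945 and 0.989 to 1.19 in the other 41 arrays. These 3 libraries also enter the spread that the fit shares over all groups. The counts of every comparison without them are given together after the single comparisons, and values without them stand beside the members they bear on most. Of the melanocyte markers, SOX10 and MITF exceeded the median signal of all probe sets on 42 arrays and S100B on 41, TYR on 21, PMEL on 2 and MLANA on 1. Of the epithelial markers KRT14 did so on 42, KRT5 on 21, EPCAM on 5 and CDH1 on 0, and of the leukocyte markers CD3E on 8 and PTPRC and CD14 on 0. Of the fibroblast markers COL1A1 and DCN did so on 42, PDGFRB on 27 and COL1A2 on 10. The part of other cell types in the results was not tested.

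All levels below are log2 signal with every array centred on the median of its genes, and all differences are log2 differences. A gene was called where limma gave a p under 0.05 after Benjamini-Hochberg adjustment across the 19775 genes and the change was at least 1.5-fold. Nutlin and daunorubicin were compared with the first DMSO set, as in an earlier analysis of these data, and the other comparisons used every DMSO array of the siRNA concerned. Of the 50 genes, 15 had a mean above the median of all signals in the deposited table, 31.9. These were H1-2, H1-6, H1-10, H2AC6, H2AC25, H2BC4, H2BC5, H2BC6, H2BC9, H2BC12, H2BC12L, H2BC21, H3C6, H4C8 and H4C11. The mean runs over all 42 arrays, treated ones included, so a member can pass through the groups where it is high. H2BC4 passed narrowly, at 5.04 against 5.00 in log2, and exceeded the median on 19 of 42 arrays. The other 35 were dim, where an array signal can be mostly background, and their differences are the less certain ones. H1-5, for example, exceeded that median on 0 of 42 arrays, as did H1-4, H3C2, H3C3 and H4C1. Members differ in how closely their probes match other copies. The probe sets of H2AC14, H2BC5, H2BC6, H2BC9, H2BC12L, H3C8 and H4C11 are of the type that can cross-hybridise with near-identical genes, so their values may contain signal of another copy. Those of H1-10, H2AC6, H2BC21, H3C2 and H4C8 are of a type whose probes can match several transcripts. Whether other copies add to their signal was not tested.

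Daunorubicin raised histone transcripts in GL2 siRNA cells. In that comparison 12 of 50 members rose and 2 fell, against 6.49% of all genes called higher and 9.93% called lower. The members that rose spanned the linker histone (H1-2 and H1-3), H2A (H2AC6 and H2AC25), H2B (H2BC4, H2BC5, H2BC6, H2BC9, H2BC12L and H2BC21) and H4 (H4C5 and H4C8). None was an H3 gene. The median difference was 0.25 over all members and 1.01 over the 15 brighter ones, beside -0.01 over all genes. Among the 15 brighter members 10 rose, against 8.37% of all genes with a mean above the same signal. That mean includes the daunorubicin arrays, and H2BC4, which passed narrowly, is among the 10. The share is therefore a description and not independent of the rise.

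H1-2, a linker histone that binds the DNA between nucleosomes, stood at 6.54, 7.25 and 6.86 under DMSO and at 8.95, 8.72 and 8.70 under daunorubicin, so that every treated array lay above every control. The difference was 1.91 ± 0.16 (SE of the fit, n = 3 arrays a group, limma adjusted p = 1.27e-10). H2BC21, an H2B gene of the smaller cluster on chromosome 1, went from 6.05, 6.05 and 6.18 to 8.94, 8.80 and 8.74. Its groups were likewise apart, with the largest difference among the 14 called members, 2.73 ± 0.33 (limma adjusted p = 1.51e-07). H2AC6, which shares its promoter region with H2BC4, went from 7.85, 7.69 and 7.49 to 9.73, 9.57 and 9.56, a difference of 1.95 ± 0.27 (adjusted p = 1.02e-06). H4C8 went from 5.00, 4.96 and 4.63 to 6.86, 6.67 and 6.77, a difference of 1.90 ± 0.24 (adjusted p = 2.28e-07). Daunorubicin arrays lay above DMSO arrays without overlap for both.

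The other members that rose were mainly H2B genes. H2BC4, on the far side of the promoter region it shares with H2AC6, differed by 1.89 ± 0.35, H2BC5 by 1.41 ± 0.24 and H2AC25, on chromosome 1, by 1.17 ± 0.21. H2BC5 lay between 7.79 and 8.05 under DMSO and between 9.19 and 9.48 under daunorubicin. H2BC9 differed by 1.01 ± 0.31, H2BC6 by 0.68 ± 0.19 and H2BC12L, the H2B gene on chromosome 21, by 0.60 ± 0.20. The calls of H2BC9, H2BC6 and H2BC12L were lost in 4, 3 and 6 of 17 alternative settings, against the second DMSO set among others. Of the dim genes, H1-3 differed by 1.74 ± 0.46 and H4C5 by 1.59 ± 0.37. H2BC12 was not called, at 0.33 ± 0.12 (adjusted p = 0.0524), although its arrays lay at 10.61, 10.65 and 10.62 under DMSO and 11.03, 10.92 and 10.93 under daunorubicin.

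The 2 members that fell were H4C11 and H3C7. H4C11 was at 6.26, 6.22 and 6.29 under DMSO and at 5.91, 3.87 and 3.60 under daunorubicin, a difference of -1.80 ± 0.49 (limma adjusted p = 0.00595). A single treated array stayed near the controls, and the call was lost without the third daunorubicin array. H3C7, a dim H3 gene, differed by -1.21 ± 0.42 (adjusted p = 0.034), and its call was lost in 7 of 16 alternative settings, among them the omission of 5 of its 6 arrays taken singly (all but the second daunorubicin array). H1-10, the replacement-type linker histone, was lower on every treated array (8.21, 8.34 and 7.92, against 9.38, 9.52 and 9.27) without a call, at -1.24 ± 0.47 (adjusted p = 0.0538). Its spread in the fit includes the p53 daunorubicin library with low 5′ to 3′ ratios, and without the doubted libraries the same difference had an SE of 0.19 and was called (limma adjusted p = 4.87e-06). The H3 gene H3C6 did not pass either, at 0.29 ± 0.24, but it was called at 1.39 with the mean of its probe sets.

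With p53 siRNA the same drug gave the opposite picture. There 0 of 50 members rose and 13 fell, against 5.67% of all genes called higher and 6.35% called lower. The 13 were 6 H2B genes (H2BC3, H2BC5, H2BC6, H2BC9, H2BC12 and H2BC12L), 3 H1 genes (H1-2, H1-8 and H1-10), H2AC14, the H3 genes H3C3 and H3C7, and H4C11. The median difference was -0.63 over all members and -1.07 over the 15 brighter ones, beside 0.01 over all genes. Of the brighter members 8 fell, against 9.51% of all genes with a mean above the same signal.

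H2BC12 was at 10.63, 10.48 and 10.48 under DMSO and at 8.88, 8.37 and 8.82 under daunorubicin. It thus lost the most relative to its spread, with a difference of -1.84 ± 0.12 (limma adjusted p = 9.73e-12). H2BC12L, its close relative on chromosome 21, went from 8.38, 8.12 and 8.37 to 6.21, 6.40 and 6.91, a difference of -1.79 ± 0.20 (adjusted p = 2.29e-07). H2BC5 went from 8.08, 8.04 and 7.96 to 6.09, 6.11 and 6.76, a difference of -1.71 ± 0.24 (adjusted p = 6.16e-06). In all 3 the treated arrays lay below the controls without overlap. H2BC9 was at 6.80, 6.62 and 6.98 under DMSO and 3.14, 4.40 and 5.39 under daunorubicin, the lowest of these from the library with the low 5′ to 3′ ratios. Its difference was -2.49 ± 0.31 with that library and -1.90 ± 0.24 in the fit without the 3 doubted libraries. H1-2 was at 7.73, 7.52 and 7.81 and then at 6.36, 6.55 and 6.95, a difference of -1.07 ± 0.16 (adjusted p = 2.17e-05).

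The library with low 5′ to 3′ ratios weighed most on H1-10. It read 4.90 there against 7.95 and 8.87 in the other two libraries labelled alike, and the difference from DMSO was -2.48 ± 0.47 with it and -1.31 ± 0.21 without the doubted libraries. Without them 12 members were called, all lower, and 11 of the 13 were among them. H1-8 and H2BC3, both dim, were lost, and H2AC6 was gained at -0.66 ± 0.16. A fit of only the groups compared, which has far fewer residual degrees of freedom, called 2 members, H2BC12 and H3C3. The part of RNA quality in these differences was not tested beyond the values without that library.

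**Figure D1:**
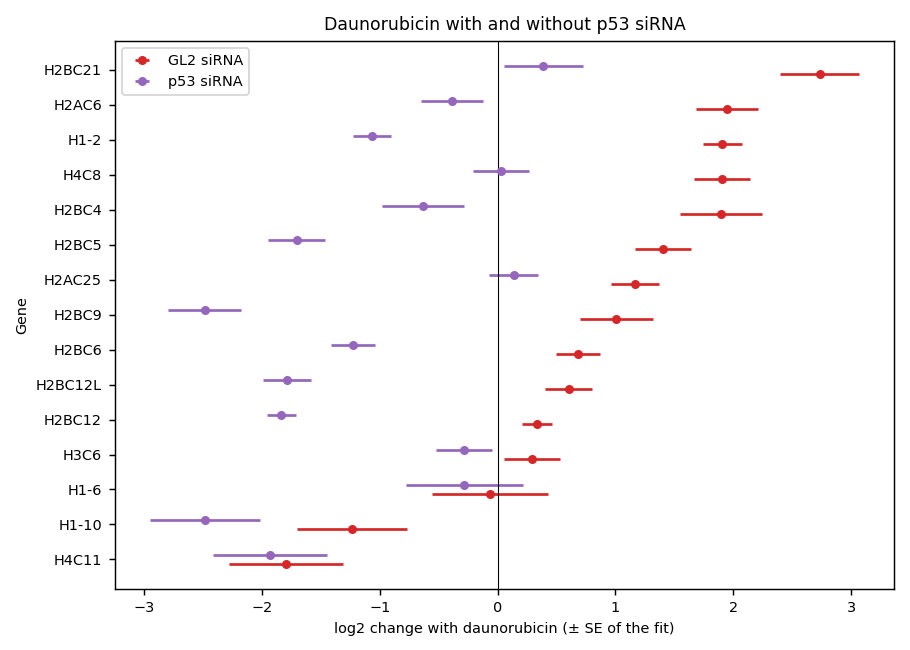
Log2 difference with daunorubicin for the 15 members above the median signal (rows), in red for GL2 siRNA cells and in purple for p53 siRNA cells, with bars of ± 1 SE of the fit (3 arrays a group). H2BC12 differed by 0.33 in GL2 and by -1.84 in p53 siRNA cells, and H4C11 by -1.80 and -1.93.

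The difference between these responses was tested as an interaction. The change with daunorubicin was lower under p53 than under GL2 siRNA for 14 of 50 members and higher for 0, against 5.69% of all genes lower and 9.65% higher. H1-2 differed between the siRNAs by -2.98 ± 0.23 (limma adjusted p = 7.78e-11), H2BC12 by -2.17 ± 0.18 (adjusted p = 2.23e-10), H2BC5 by -3.11 ± 0.34 (adjusted p = 4.58e-08) and H2BC12L by -2.39 ± 0.29 (adjusted p = 3.03e-07). These 4 kept the call in each of the 23 alternative settings tried. Among them H1-2, H2BC5 and H2BC12L were called higher under GL2 and lower under p53 siRNA. The other 10 were H1-3, H2AC6, H2AC14, H2AC25, H2BC4, H2BC6, H2BC9, H2BC21, H4C5 and H4C8. H2BC21 and H4C8 rose under GL2 siRNA and were not called under p53 siRNA, where their differences were 0.39 ± 0.33 and 0.03 ± 0.24. The interaction of H2BC21 was -2.35 ± 0.47 and that of H4C8 -1.88 ± 0.34. Without the doubted libraries 14 members were again lower, of which 13 were the same genes.

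**Figure D2:**
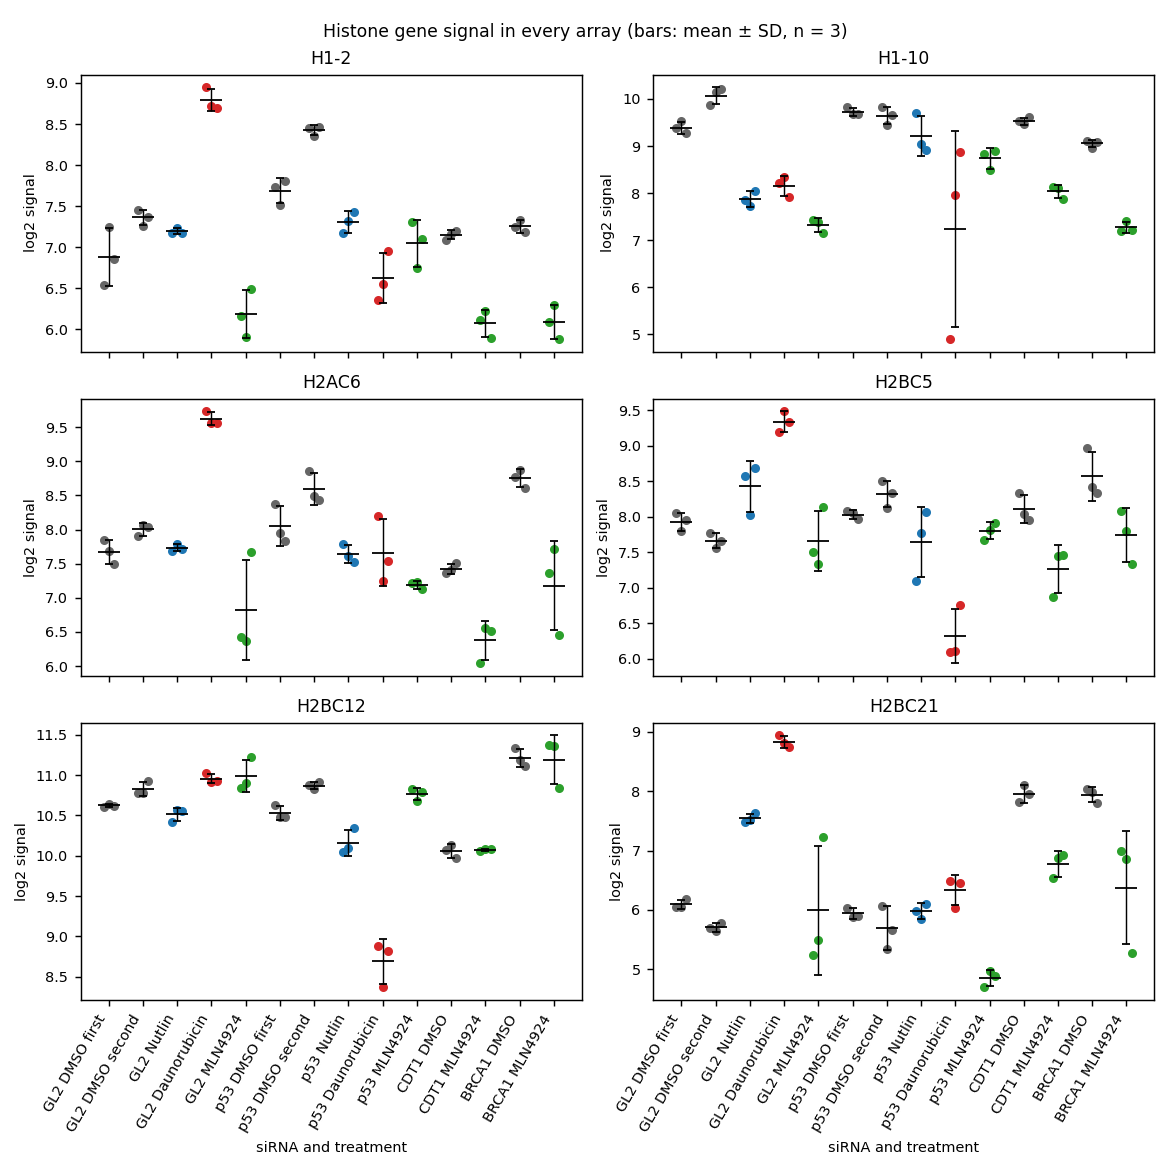
Log2 signal of 6 members on all 42 arrays, grouped by siRNA and treatment on the horizontal axis, with grey points for DMSO, blue for Nutlin, red for daunorubicin and green for MLN4924, and with bars for the mean ± SD (n = 3). H1-2 and H2BC21 lie highest in GL2 siRNA cells with daunorubicin, and H2BC12 and H2BC5 lie lowest in p53 siRNA cells with daunorubicin.

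Genes that mark S phase moved otherwise. Of 20 measured reference genes of DNA replication, 0 rose and 19 fell with daunorubicin in GL2 siRNA cells (median -3.07), while 0 rose and 3 fell in p53 siRNA cells (median -0.04). Their interaction was higher under p53 siRNA in 19 of 20 (median 2.75), against 9.65% of all genes. Over all genes 6.49% were called higher and 9.93% lower in GL2 siRNA cells, and 5.67% and 6.35% in p53 siRNA cells. Of 39 measured genes for histone transcription and message processing, 0 rose and 16 fell in GL2 siRNA cells. Among them were CCNE2, which encodes cyclin E2 (-4.13 ± 0.22), SLBP (-1.68 ± 0.12) and LSM11, a subunit of the U7 particle that cuts histone messages (-1.08 ± 0.14). In p53 siRNA cells 1 of these 39 rose, ZNF473 at 1.32 ± 0.20, and 3 fell, SNRPB, CDK9 and SYMPK. SNRPB, a protein of the small nuclear ribonucleoprotein core, differed by -1.41 ± 0.28, CDK9, a kinase of transcription elongation, by -1.22 ± 0.26 and SYMPK, a scaffold of the cleavage machinery, by -0.79 ± 0.19. The genes of these lists were not tested without the p53 daunorubicin library with low 5′ to 3′ ratios.

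With Nutlin, histone genes were called at shares near those of all genes. In GL2 siRNA cells 4 of 50 members rose and 5 fell, against 6.71% of all genes higher and 9.67% lower. Without centring, 4 were called higher and 3 lower. H2BC21 went from 6.05, 6.05 and 6.18 to 7.47, 7.52 and 7.63, with no overlap, a difference of 1.45 ± 0.33 (limma adjusted p = 0.00134). H4C8 rose by 0.80 ± 0.24 (adjusted p = 0.0121), from 5.00, 4.96 and 4.63 to 5.82, 5.44 and 5.74. The dim genes H1-3 and H4C5 rose by 1.43 ± 0.46 and 1.07 ± 0.37. The count of called members was 4 without the second array of the first DMSO set and 5 without the second Nutlin array.

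The members that fell with Nutlin were H4C11, H1-10, H3C7, H3C2 and H2AC17. H4C11 was at 6.26, 6.22 and 6.29 under DMSO and at 4.19, 3.33 and 4.01 under Nutlin, a difference of -2.42 ± 0.49 (limma adjusted p = 0.000293). H1-10 went from 9.38, 9.52 and 9.27 to 7.86, 7.72 and 8.05, a difference of -1.51 ± 0.47 (adjusted p = 0.0162). In both, treated and control arrays did not overlap. H3C7 differed by -1.79 ± 0.42, H3C2 by -2.06 ± 0.76 and H2AC17 by -0.82 ± 0.27, all 3 dim. H1-2 was not called, at 0.31 ± 0.16 (adjusted p = 0.183), nor were H2AC6 at 0.06 ± 0.27 and H2BC12 at -0.11 ± 0.12. The S phase reference genes fell in 18 of 20 cases (median -3.09), and CCNE2 (-4.94 ± 0.22), SLBP (-1.68 ± 0.12) and ERI1, an exonuclease that trims histone messages (-1.42 ± 0.16), fell with them.

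In p53 siRNA cells limma called 0 of 50 members with Nutlin, and 4 had an unadjusted p under 0.05. Over all genes, 0.0405% were called higher and 0.0152% lower. H2BC21 stood at 6.04, 5.89 and 5.90 under DMSO and 5.99, 5.84 and 6.11 under Nutlin, a difference of 0.04 ± 0.33. Against the second DMSO set 5 members were called lower, and against both sets 2, so the count depends on the set used. The interaction with p53 siRNA was called higher for H4C11, at 2.10 ± 0.69 (limma adjusted p = 0.0442), and lower for H1-2, at -0.69 ± 0.23 (adjusted p = 0.0497), against 5.3% of all genes higher and 4.72% lower. With quantile normalization it was called higher for 1 member and lower for 3. Neither gene kept its call in all 23 alternative settings, with 14 losses for H4C11 and 13 for H1-2. When the doubted libraries were left out, 2 members were called higher and 4 lower, H2BC21 among the latter (-1.41 ± 0.20, limma adjusted p = 3.5e-06).

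Set side by side in GL2 siRNA cells, histone genes were lower with Nutlin than with daunorubicin for 9 of 50 members and higher for 0, against 1.22% of all genes lower and 1.08% higher. The doses and agents differ, so this compares these treatments and not the drugs at matched strength. H1-2 differed by -1.59 ± 0.16 (limma adjusted p = 2.76e-07), H2AC6 by -1.89 ± 0.27 (adjusted p = 4.73e-05), H4C8 by -1.10 ± 0.24 (adjusted p = 0.00649) and H2BC4 by -1.38 ± 0.35 (adjusted p = 0.021). The other 5 were H2AC14, H2AC17, H2AC25, H2BC5 and H2BC21. Leaving out any 1 of the 6 arrays gave 3 to 6 calls (3 without daunorubicin array 3 or Nutlin array 1), and a fit of only these groups gave 4. H2BC4 lost its call in 5 of 15 settings, while H1-2 and H2AC6 kept theirs in all 15. H2AC6 stood at 7.69, 7.79 and 7.72 with Nutlin, within the range of its DMSO arrays. Of the 20 S phase reference genes, 1 was higher and 2 were lower with Nutlin than with daunorubicin.

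**Figure D3:**
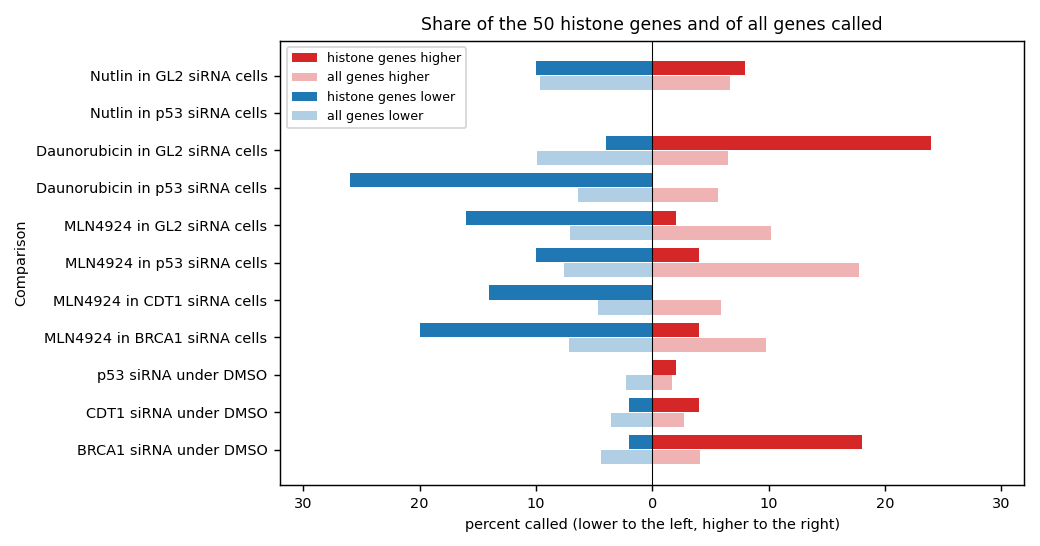
Share of the 50 histone genes (dark bars) and of all 19775 genes (pale bars) called higher (red, to the right) or lower (blue, to the left) in each of 11 comparisons, in percent. Histone genes reach 24.0% higher with daunorubicin in GL2 siRNA cells and 26.0% lower with it in p53 siRNA cells, where 6.49% and 6.35% of all genes were called the same way.

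MLN4924 lowered a small set of members under every siRNA. H1-2, H2AC6 and the pseudogene H1-9P fell in all 4 siRNA groups, and H1-10 and H2BC21 fell in 3 of them. In GL2 siRNA cells 1 member rose and 8 fell, against 10.2% of all genes higher and 7.06% lower. In p53 siRNA cells 2 rose and 5 fell, against 17.8% and 7.6%, and at the deposited scaling 0 rose and 12 fell there. In CDT1 siRNA cells 0 rose and 7 fell, against 5.93% and 4.63%, and in BRCA1 siRNA cells 2 rose and 10 fell, against 9.79% and 7.15%. Under CDT1 siRNA the count of called members was 4 without the second DMSO array and 3 without the first MLN4924 array. Under BRCA1 siRNA it was 7 without the first DMSO array and 6 without the third MLN4924 array, which is the library with the doubted label.

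H1-2 stood at 6.54, 7.25 and 6.86 in the first and 7.46, 7.26 and 7.37 in the second DMSO set of GL2 siRNA cells, and at 6.17, 5.91 and 6.50 with MLN4924. In CDT1 siRNA cells it went from 7.09, 7.16 and 7.20 to 6.11, 6.22 and 5.90, and in BRCA1 siRNA cells from 7.25, 7.33 and 7.18 to 6.09, 6.29 and 5.88. No array with MLN4924 reached a DMSO array of its siRNA in these 3 groups. Its differences were -0.93 ± 0.14 under GL2 siRNA, -1.01 ± 0.14 under p53, -1.08 ± 0.16 under CDT1 and -1.16 ± 0.16 under BRCA1 siRNA, with limma adjusted p-values from 8.96e-07 to 1.36e-05. It kept each of these calls at all settings tried.

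H2AC6 stood between 7.49 and 8.07 under DMSO in GL2 siRNA cells and at 6.43, 6.37 and 7.67 with MLN4924, the last of these from the library whose BRCA1 level went against its label. In BRCA1 siRNA cells it went from 8.77, 8.87 and 8.61 to 7.36, 7.72 and 6.46, the last again from the library with the doubted label. Its differences were -1.01 ± 0.23 under GL2, -1.13 ± 0.23 under p53, -1.05 ± 0.27 under CDT1 and -1.57 ± 0.27 under BRCA1 siRNA. Without the doubted libraries they were -1.44 ± 0.14 under GL2 and -1.21 ± 0.16 under BRCA1 siRNA. H1-9P, a dim pseudogene, differed by -4.33 ± 0.56, -3.66 ± 0.56, -3.68 ± 0.65 and -3.30 ± 0.65 in the same order of siRNAs. It lay between 4.91 and 5.79 under DMSO in GL2 siRNA cells and at 0.38, 0.46 and 2.21 with MLN4924, where a low signal mostly bounds the level.

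H1-10 went from between 9.27 and 10.20 under DMSO to 7.44, 7.38 and 7.15 with MLN4924 in GL2 siRNA cells, a difference of -2.41 ± 0.40 (limma adjusted p = 2.16e-05). It fell by 1.49 ± 0.47 under CDT1 and by 1.78 ± 0.47 under BRCA1 siRNA, and under p53 siRNA the difference was -0.94 ± 0.40 without a call (adjusted p = 0.0661). The call under CDT1 siRNA was lost on leaving out any 1 of its 6 arrays. Leaving out the doubted libraries, the p53 difference was called, at -0.94 ± 0.16 (limma adjusted p = 1.62e-05), so that H1-10 was lower under all 4 siRNAs. The interaction of p53 with GL2 siRNA called 0 of 50 members in limma (5 at an unadjusted p under 0.05), against 6.96% of all genes higher and 3.41% lower. In the fit without the doubted libraries it called 2 higher, H1-10 at 1.38 ± 0.24 (adjusted p = 0.000199) and the dim H1-4. H2BC21 fell by 0.96 ± 0.29 under p53, by 1.18 ± 0.33 under CDT1 and by 1.57 ± 0.33 under BRCA1 siRNA, the last of these -1.02 ± 0.15 without the doubted libraries. Its call under CDT1 siRNA was lost without the second DMSO or the first MLN4924 array. Under GL2 siRNA its MLN4924 arrays read 5.24, 5.50 and 7.23, and the difference was 0.09 ± 0.29. Without the doubted libraries, the third of these arrays among them, it was -0.53 ± 0.14 and not called (limma adjusted p = 0.00338, under 1.5-fold). H2BC5 fell under CDT1 (-0.85 ± 0.24) and BRCA1 siRNA (-0.83 ± 0.24), and H2AC25 under BRCA1 siRNA (-0.84 ± 0.21). H2AC25 was no longer called there without the doubted libraries, at -0.56 ± 0.14 (adjusted p = 0.00214, under 1.5-fold), and was called under GL2 siRNA, at -0.67 ± 0.12. H2BC12, the H2B gene that fell with daunorubicin under p53 siRNA, lay at 10.84, 10.90 and 11.22 with MLN4924 in GL2 siRNA cells, and its differences ran from -0.02 ± 0.12 to 0.26 ± 0.11 over the 4 siRNAs without a call.

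**Figure D4:**
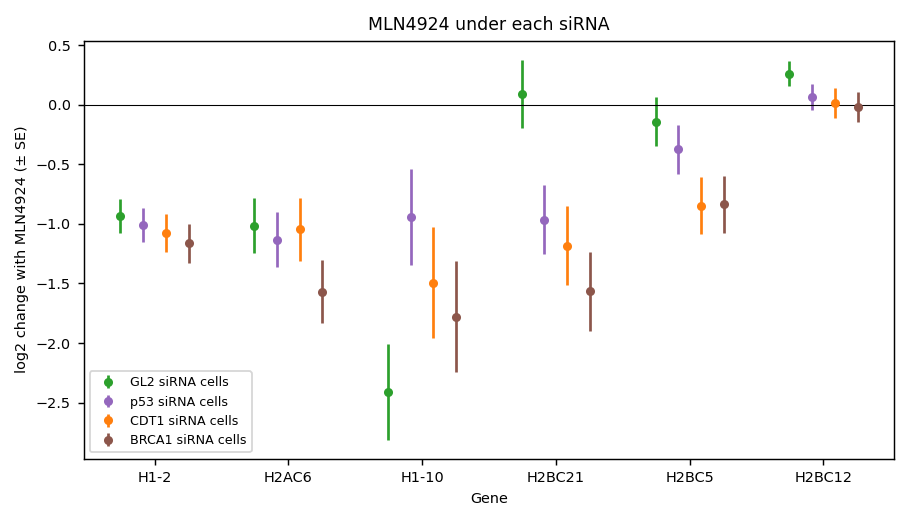
Log2 difference with MLN4924 for 6 members (horizontal axis) under each siRNA, in green for GL2, purple for p53, orange for CDT1 and brown for BRCA1, with bars of ± 1 SE of the fit. H1-2 lies between -0.93 and -1.16 under all 4 siRNAs, and H2BC12 between -0.02 and 0.26.

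Members called in single groups were mostly dim. H2AC14 and H3C7 each fell under 2 siRNAs, and H2AC8, H2AC15, H2BC15, H3C3 and H4C11 each under 1. Those that rose were H1-4 under p53 (1.93 ± 0.64) and BRCA1 siRNA (2.16 ± 0.73), H1-5 under p53 (1.28 ± 0.42), H4C1 under GL2 (2.14 ± 0.70) and H4C7 under BRCA1 siRNA (0.94 ± 0.34). Each of these 5 calls was lost on leaving out at least 1 of the arrays of its MLN4924 group, taken singly. Without the 3 doubted libraries, 1 member rose and 7 fell under GL2 siRNA, 6 of them called with all libraries, and 3 rose and 7 fell under BRCA1 siRNA, 9 of them called with all. The calls lost were H2AC14, H3C3 and H3C7 under GL2 and H2AC14, H2AC25 and H2BC15 under BRCA1 siRNA. The response was called different between BRCA1 and GL2 siRNA for 1 member, H2BC21, at -1.66 ± 0.44 (limma adjusted p = 0.0429), against 1.23% of all genes lower and 0.632% higher. Without the doubted libraries this was -0.49 ± 0.21 (adjusted p = 0.225). Between CDT1 and GL2 siRNA 0 of 50 were called by limma, with 3 at an unadjusted p under 0.05, against 0.521% of all genes higher and 0.698% lower.

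Regulators of histone messages rose with MLN4924 mainly in p53 siRNA cells. There 23 of the 39 rose and 1 fell, against 17.8% of all genes higher and 7.6% lower. SLBP differed by 1.25 ± 0.10, HINFP, which activates H4 genes, by 1.02 ± 0.10 and LSM11 by 1.20 ± 0.12. In GL2 siRNA cells 7 rose and 1 fell, against 10.2% and 7.06%. HINFP was at 1.36 ± 0.10 there, CCNE1 at 1.09 ± 0.15 and LSM10, a partner of LSM11 in the U7 particle, at 0.76 ± 0.10. In CDT1 siRNA cells 2 rose and 1 fell, against 5.93% and 4.63%, so the list did not rise more than all genes. In BRCA1 siRNA cells 8 rose and 2 fell, against 9.79% and 7.15%. Tested as a difference from the GL2 response, 10 of 39 were higher and 0 lower under p53 siRNA, against 6.96% and 3.41% of all genes. Under CDT1 siRNA 0 were higher and 1 lower (HINFP), against 0.521% and 0.698%, and under BRCA1 siRNA 0 either way, against 0.632% and 1.23%. MIF4GD, which links SLBP to translation, fell under all 4 siRNAs, from -0.64 ± 0.10 under p53 to -1.17 ± 0.11 under BRCA1 siRNA. Of the S phase reference genes 13 rose and 0 fell under p53 siRNA (median 0.65), while 0 rose and 8 fell under GL2 siRNA (median -0.48). These values depend on the centring. Skipping that step would move each of them by -0.42 under p53 and by -0.18 under GL2 siRNA. Neither list was recounted at the deposited scaling. Nor was either recounted without the doubted libraries, which here lie in the GL2 and BRCA1 siRNA groups with MLN4924.

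Against the other drugs in GL2 siRNA cells, members lay lower with MLN4924. Compared with daunorubicin 13 of 50 were lower and 0 higher, against 9.03% of all genes lower and 18.2% higher, led by H1-2 (-2.84 ± 0.18), H2AC6 (-2.96 ± 0.30) and H2BC21 (-2.64 ± 0.37). Compared with Nutlin 7 were lower and 0 higher, against 8.69% lower and 17% higher, led by H1-2 (-1.25 ± 0.18), H1-9P (-4.77 ± 0.73), H1-3 (-2.22 ± 0.51) and H2BC21 (-1.36 ± 0.37). These comparisons share the MLN4924 arrays, and the labels do not say which DMSO set belongs to which drug. With a fit of only the groups compared, 4 members were higher and 7 lower with MLN4924 than with Nutlin. Once the doubted libraries were left out, 1 of which is a GL2 MLN4924 array, 15 were lower and 0 higher than with daunorubicin and 10 lower and 1 higher than with Nutlin. H2BC21 then differed by -3.26 ± 0.17 and -1.98 ± 0.17.

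Some H2A, H2B and H4 genes were higher under BRCA1 siRNA in cells given DMSO. There 9 of 50 members rose and 1 fell relative to GL2 siRNA, against 4.11% of all genes higher and 4.37% lower. Those that rose were the H2B genes H2BC4, H2BC5, H2BC6, H2BC12L and H2BC21, the H2A genes H2AC6, H2AC15 and H2AC25, and H4C8. The median difference was 0.62 over the 15 brighter members and -0.04 over all 50, beside -0.05 over all genes. Of the 50 differences, 24 were positive. H2AC25, called at 0.62, was at -0.22 with the mean of its probe sets. H2BC21 lay between 5.64 and 6.18 in the 6 GL2 arrays and at 8.04, 7.98 and 7.81 in BRCA1 siRNA cells, a difference of 2.04 ± 0.29 (limma adjusted p = 8.92e-06). H2AC6 lay between 7.49 and 8.07 and then at 8.77, 8.87 and 8.61, a difference of 0.91 ± 0.23 (adjusted p = 0.00598). Neither gene's groups overlapped.

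H2BC12L differed by 0.81 ± 0.18 (limma adjusted p = 0.00158) and H4C8 by 0.78 ± 0.21 (adjusted p = 0.00876) under BRCA1 siRNA. The gene that fell was H1-6, the germ cell linker histone, at -1.29 ± 0.43 (adjusted p = 0.0385). Against the second DMSO set alone, 4 members were called, all higher. The count was 6 without the second array of the second GL2 set, 5 without the first BRCA1 siRNA array and 6 without the second. Among the 20 S phase reference genes 0 rose and 15 fell under BRCA1 siRNA (median -0.70). Of the 39 regulators CCNE1 rose (0.70 ± 0.15) and ZNF473 fell (-0.65 ± 0.17).

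Under siRNA against CDT1, the protein that loads the replicative helicase at origins, members were called at shares near those of all genes. Of 50 members 2 rose and 1 fell, against 2.72% of all genes higher and 3.58% lower. H2BC21 rose by 2.06 ± 0.29 (limma adjusted p = 8.48e-06), to 7.81, 8.11 and 7.95, clear of the GL2 arrays. H2AC25 rose by 0.61 ± 0.18 (adjusted p = 0.0215). H2BC12 fell by 0.67 ± 0.11 (adjusted p = 6.59e-05), from between 10.61 and 10.93 to 10.07, 10.13 and 9.97, again without overlap. The CDT1 and BRCA1 siRNA groups share the GL2 DMSO arrays as control, so their H2BC21 values are not independent of each other.

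Under p53 siRNA with DMSO 1 of 50 members was called, again a share near that of all genes, of which 1.71% were higher and 2.27% lower. H1-2 rose by 0.93 ± 0.12 (limma adjusted p = 8.1e-07). It stood at 7.73, 7.52 and 7.81 in the first and 8.45, 8.36 and 8.47 in the second p53 siRNA set, each above all 6 GL2 arrays, of which the highest was 7.46. The sets themselves differed for this gene. H1-2 was 0.74 ± 0.16 higher in the second than in the first DMSO set under p53 siRNA (adjusted p = 0.0342), the one member called there, against 0.0809% of all genes higher and 0.197% lower. Between the GL2 sets limma called 0 of 50 members, with 6 at an unadjusted p under 0.05, against 0.364% of all genes higher and 0.576% lower.

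The fit without the 3 doubted libraries changed calls in comparisons that do not contain them as well, since the spread is shared. No share of all genes called was taken from this fit. Whether members gained calls more often than other genes was therefore not tested, here or where its counts stand above. With daunorubicin in GL2 siRNA cells 14 members then rose and 3 fell, with H1-4, H1-10 and H2AC15 gained. Under BRCA1 siRNA with DMSO 10 rose and 3 fell, with H2BC9, H1-10 and H4C4 gained. With Nutlin in GL2 siRNA cells 4 rose and 6 fell, and 13 members were lower with Nutlin than with daunorubicin. Under p53 siRNA with DMSO 2 rose and 1 fell, and under CDT1 siRNA 2 rose and 2 fell. Between the DMSO sets H1-10 was then higher in the second set under GL2 siRNA (0.68 ± 0.19, limma adjusted p = 0.0325), and H2BC12L and H1-2 under p53 siRNA. With MLN4924 the counts under CDT1 siRNA were again 0 and 7, and under p53 siRNA 2 rose and 6 fell.

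**Figure D5:**
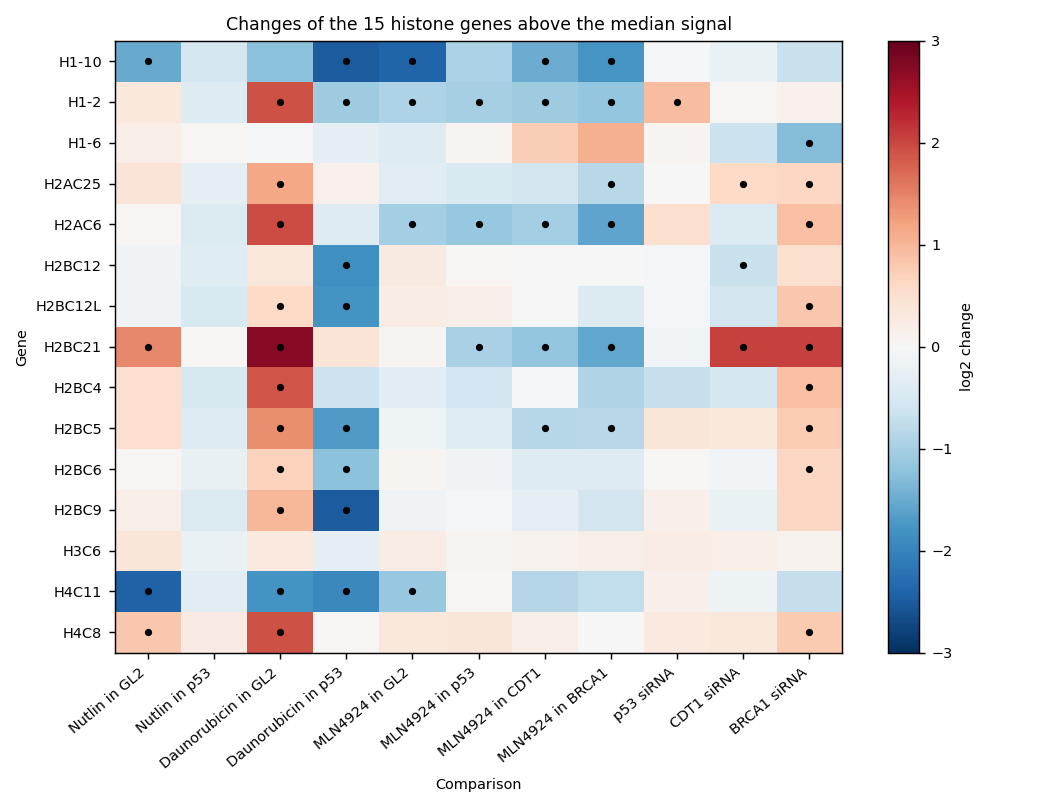
Log2 differences of the 15 members above the median signal (rows) in 11 comparisons of treated or siRNA cells with their DMSO or GL2 controls (columns), with red for higher, blue for lower and a dot where the gene was called. Daunorubicin in GL2 siRNA cells holds 10 higher calls among these genes and daunorubicin in p53 siRNA cells 8 lower ones, while H3C6 was called in none of the 11.

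Replacement variants, the histones that are deposited outside replication, moved more uniformly with Nutlin than with daunorubicin in GL2 siRNA cells. Of 8 measured, 5 fell and 0 rose with Nutlin there (median -1.02), against 9.67% of all genes called lower and 6.71% higher. They included H2AX, which is phosphorylated at broken DNA (-1.49 ± 0.12), CENPA, the H3 of centromeres (-2.13 ± 0.22), and H2AZ1 (-1.14 ± 0.13). With daunorubicin in GL2 siRNA cells 4 fell, against 9.93% of all genes, among them H2AX (-1.66 ± 0.12), CENPA (-2.19 ± 0.22) and H2AZ2 (-1.24 ± 0.13). H2AJ, an H2A variant, rose there by 1.16 ± 0.28, as the member H2BC21 did. In p53 siRNA cells with daunorubicin 3 fell, H2AX (-1.18 ± 0.12), CENPA (-1.35 ± 0.22) and H3-3A (-0.60 ± 0.20), against 6.35% of all genes. H2AJ also rose under CDT1 (1.41 ± 0.24) and BRCA1 siRNA (0.94 ± 0.24), where H2BC21 was higher too. With MLN4924, 0 of the 8 were called higher under any siRNA. Called lower were 2 under GL2, 2 under p53, 3 under CDT1 and 3 under BRCA1 siRNA. Of all genes 7.06%, 7.6%, 4.63% and 7.15% were called lower in the same order, and 10.2%, 17.8%, 5.93% and 9.79% higher. CENPA was lower under each of the 4 siRNAs, least with p53 siRNA (-0.85 ± 0.19) and most with GL2 siRNA (-1.49 ± 0.19). H2AX was lower with GL2 siRNA (-1.43 ± 0.10), CDT1 siRNA (-0.97 ± 0.12) and BRCA1 siRNA (-0.97 ± 0.12). H2AJ fell by 0.94 ± 0.24 in p53, by 0.89 ± 0.28 in CDT1 and by 1.11 ± 0.28 in BRCA1 siRNA cells. The variants too were counted only with centring and with all libraries.

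The 20 probe sets that name several histone genes were read in a fit over all 54613 probe sets. With daunorubicin 12 rose and 1 fell in GL2 siRNA cells, against 4.13% and 8.25% of all probe sets, and 0 rose and 7 fell in p53 siRNA cells, against 3.45% and 7.51%. All 3 probe sets shared by H2AC18 and H2AC19, on chromosome 1, rose in GL2 siRNA cells. The one with the largest difference lay between 7.89 and 8.07 under DMSO and at 11.07, 10.87 and 10.72 under daunorubicin, a difference of 2.90 ± 0.33 (limma adjusted p = 1.02e-07). In p53 siRNA cells it differed by -0.73 ± 0.33 without a call (adjusted p = 0.166), and the interaction was -3.63 ± 0.47 (adjusted p = 2.8e-06). All 3 probe sets shared by 5 H2B genes, H2BC4 and H2BC6 among them, rose in GL2 siRNA cells, as did both probe sets shared by H2BC8 and H2BC11. Of these 5 H2B probe sets 4 fell in p53 siRNA cells. Of 2 probe sets that name the same 10 H3 genes, 1 rose in GL2 siRNA cells (1.85 ± 0.39, adjusted p = 0.000826). No H3 member was called higher there by its brightest probe set, but H3C6 was with the mean of its probe sets. Of 5 probe sets that name the same 14 H4 genes, 1 rose and 1 fell, the latter by 1.64 ± 0.48 (adjusted p = 0.017). The interaction was lower for 11 of the 20 and higher for 0, against 3.95% and 5.68% of all probe sets. The sets given with values were chosen after these had been seen.

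Over the 14 groups the members spanned unequal ranges. H2BC21 moved by 3.97 between its lowest group mean (p53 siRNA with MLN4924) and its highest (GL2 siRNA with daunorubicin), H2AC6 by 3.24 and H2BC5 by 3.02, while H3C6 moved by 0.62. Some members followed one another. As a description over 14 group means, which share arrays and in part probe sequence, Pearson's r was 0.98 for H2BC12 with H2BC12L, 0.96 for H2BC6 with H2BC9, 0.88 for H1-2 with H2AC6 and 0.83 for H2AC25 with H2BC21. H2AC25 and H2BC21 both lie on chromosome 1 but far apart, from bases 228457874 and 149886683. H1-10 followed H4C11 with r of 0.83, and these fell together with Nutlin. The group means include the doubted libraries, and no r was computed without them. In the p53 daunorubicin library with low 5′ to 3′ ratios both read lowest of their group, H1-10 at 4.90 and H4C11 at 3.12. H4C11 and H4C8, which encode the same protein, had an r of -0.54.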

How the data were processed

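The 42 arrays were Affymetrix whole-genome arrays. The authors deposited signal intensity on a linear scale for 54675 probe sets, for which the submitters' processing notes name Affymetrix Expression Console without a version. Every array had a mean of 150 once the top and bottom 2% of values were trimmed, as checked in the table. Genes were named from GEO's platform annotation. Each of 19775 genes was read by its single-symbol probe set with the highest mean, 147 values of 0 were raised to 0.1 and log2 was taken of the deposited intensity. Each array was then centred on its median gene (5.63 to 6.35 before centring) and the constant 6.06 was added back to all. Without this centring the median change of all genes would shift by up to -0.42 (MLN4924 in p53 siRNA cells) and 0.17 (daunorubicin in GL2 siRNA cells).

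Contrasts came from 1 fit of all 14 groups in limma 3.58.1 (R 4.3.3) with lmFit and eBayes. Array number limits precision. On simulated data for daunorubicin in GL2 siRNA cells, the fit over 19775 genes recovered 16.4% of 67 genes changed 1.5-fold, 47.8% of 67 changed 2-fold and 65.2% of 66 changed 4-fold, and it made 3 false calls among 19575 unchanged genes. These rates do not reflect array number alone. Genes set at 1.5-fold can miss the fold threshold itself. Far fewer genes were changed there than the 6.49% higher and 9.93% lower called in the data, which makes the adjustment stricter. The members, gene lists and control sets were chosen with earlier results of these data known. Named with values were the members with the highest signal in each class, H1-10, and up to 4 called members in each direction per comparison. For the lists, up to 3 were named in each direction. Other members named, some of them with values, were chosen after their values were seen.

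Replicate numbers were checked for pairing by correlating deviations from group means. In 0 of 91 pairs of groups did all 3 correlations exceed 0.1 (range -0.21 to 0.12), so the main fit has no block. The alternatives were the deposited scaling, quantile normalization, the mean of a gene's probe sets, a pseudocount of 16, leaving out dim genes, the replicate block, limma's trend and robust options, a fit of only the groups compared, other DMSO sets, leaving out the 3 doubted libraries and leaving out each array. The fit over shared probe sets was added after seeing the data. Detection calls and scan dates were not analysed here. Tables used Python 3.11.15, numpy 2.4.6 and pandas 2.3.3, and figures matplotlib 3.10.9.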

Additional observations from a re-analysis of the deposited data

Results flagged for a closer look

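The response to daunorubicin differed between p53 and GL2 siRNA cells by a test of the difference itself for H1-2 (-2.98 ± 0.23, limma adjusted p = 7.78e-11), H2BC12 (-2.17 ± 0.18, adjusted p = 2.23e-10), H2BC12L (-2.39 ± 0.29, adjusted p = 3.03e-07) and H2BC5 (-3.11 ± 0.34, adjusted p = 4.58e-08). All 4 kept the call in each alternative setting. In each, every GL2 daunorubicin array lay above the arrays of the first GL2 DMSO set, and every p53 daunorubicin array lay below those of the first p53 set. With the second GL2 DMSO set, H2BC12 and H2BC12L overlapped. H2BC12L stood at 9.05, 8.88 and 8.93 in that set and at 9.22, 8.96 and 8.80 with daunorubicin. H2BC12 stood at 10.77, 10.78 and 10.93 and at 11.03, 10.92 and 10.93.

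The response to Nutlin differed between the same siRNAs for H4C11 (2.10 ± 0.69, limma adjusted p = 0.0442) and H1-2 (-0.69 ± 0.23, adjusted p = 0.0497). The response to MLN4924 differed between BRCA1 and GL2 siRNA cells for H2BC21 (-1.66 ± 0.44, adjusted p = 0.0429). None of these 3 held throughout. The calls were lost in 14 of 23 alternative settings for H4C11, in 13 of 23 for H1-2 and in 15 of 26 for H2BC21, with the replicate block among them in each case. The H2BC21 call was also lost without the 3 doubted libraries.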

How the results depend on the processing

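Of the 132 calls of single members, 55 held in every alternative that could be run and 77 were lost in at least 1. A called difference turned its direction in 1 case, H2AC25 under BRCA1 siRNA, at -0.22 with the mean of probe sets. Of 16 uncalled differences printed above, 4 passed in at least 1 alternative and 10 turned their direction in at least 1, so those 10 have no settled direction. With MLN4924, H2BC21 under GL2 siRNA was at -0.092 at the deposited scaling, -0.10 against the first DMSO set, -0.53 without the doubted libraries and -0.53 to 0.46 leaving out each array. H2BC12 was at -0.35 (deposited scaling), -0.45 (quantile normalization), -0.016 (pseudocount of 16) and -0.10 (second DMSO set) under p53 siRNA. Under CDT1 siRNA it was at -0.10, -0.12, -0.033 (mean of probe sets), -0.0068 (pseudocount) and -0.031 to 0.050 leaving out each array, and under BRCA1 siRNA at 0.15 without the doubted libraries and -0.11 to 0.15 leaving out each array. With Nutlin in GL2 siRNA cells, H1-2 was at -0.17 and H2AC6 at -0.27 against the second DMSO set, H2AC6 at -0.11 against both sets and -0.034 to 0.14 leaving out each array, and H2BC12 at 0.014 (deposited scaling) and 0.035 (quantile normalization). H2BC21 with Nutlin in p53 siRNA cells ran from -0.028 to 0.10 and H3C6 with daunorubicin in GL2 siRNA cells from -0.011 to 0.48 leaving out each array. H4C8 with daunorubicin in p53 siRNA cells was at -0.29 against the second DMSO set, -0.13 against both, -0.015 without the doubted libraries and -0.10 to 0.13 leaving out each array. The cause of these changes and of those below was not tested. Counts of called members changed by over 1.5 times as follows. Leaving out dim genes, which leaves 15 members to test, gave 4 with MLN4924 in GL2, 4 in p53 and 7 in BRCA1 siRNA cells, 4 with Nutlin in GL2 and 8 with daunorubicin in p53 siRNA cells, 2 for p53 siRNA under DMSO and 2 for the difference in MLN4924 response between p53 and GL2 siRNA. The deposited scaling gave 12 with MLN4924 in p53 siRNA cells, 1 for that difference in MLN4924 response and 0 between the DMSO sets of p53 siRNA. Leaving out the 3 doubted libraries gave 3 for p53 siRNA under DMSO, 2 for the MLN4924 difference of p53 less GL2 siRNA, 0 for that of BRCA1 less GL2 siRNA, 6 for the Nutlin difference, 11 for MLN4924 less Nutlin, and 1 and 2 between the DMSO sets of GL2 and p53 siRNA. A fit of only the groups compared gave 2 with daunorubicin in p53 siRNA cells, 3 for p53 siRNA, 2, 1 and 0 for the MLN4924 differences of p53, CDT1 and BRCA1 siRNA from GL2, 7 for the Nutlin difference, 11 for MLN4924 less Nutlin, 4 for Nutlin less daunorubicin and 0 between the p53 DMSO sets. The first DMSO set as control gave 5 with MLN4924 in GL2 siRNA cells and 0 for the MLN4924 difference of BRCA1 less GL2. The second gave 5 with Nutlin in p53 siRNA cells, 2 for p53 siRNA, 4 for BRCA1 siRNA and 4 for the Nutlin difference, and both sets gave 2 and 5 for the Nutlin results. A pseudocount of 16 gave 2 for p53 siRNA, 1 for the MLN4924 difference of p53 less GL2, 4 for the Nutlin difference and 11 for MLN4924 less Nutlin. Quantile normalization gave 4 for the Nutlin difference, and the mean of probe sets gave 1 for the MLN4924 difference of p53 less GL2 and 0 between the p53 DMSO sets. The replicate block gave 0 for the Nutlin difference (2 without it) and 0 for the MLN4924 difference of BRCA1 less GL2 (1 without it), and moved no other count by over 1.5 times; the numbers do not pair the samples. Leaving out each array in turn gave 6 to 9 members with MLN4924 in GL2, 5 to 9 in p53, 3 to 7 in CDT1 and 6 to 14 in BRCA1 siRNA cells, 4 to 8 and 0 to 0 with Nutlin in GL2 and p53, and 11 to 13 and 10 to 14 with daunorubicin. It gave 1 to 2 for p53, 2 to 3 for CDT1 and 5 to 10 for BRCA1 siRNA. For the differences in response it gave 0 to 2 (MLN4924, p53 less GL2), 0 to 1 (CDT1 less GL2), 0 to 2 (BRCA1 less GL2), 0 to 3 (Nutlin) and 13 to 17 (daunorubicin). It gave 5 to 8 for MLN4924 less Nutlin, 11 to 14 for MLN4924 less daunorubicin, 3 to 6 for Nutlin less daunorubicin, and 0 to 0 between the DMSO sets of either siRNA.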
